A study of Mus musculus with 6 samples.

Results

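The genes described here are myogenic regulators and satellite cell genes, 8 genes chosen by their symbols from the 37979 genes of the expression table. They are the 4 myogenic regulatory factors *Myod1*, *Myog*, *Myf5* and *Myf6*, the satellite cell genes *Pax7* and *Cdh15*, and the cofactors *Six4* and *Vgll2*. The study compared hindlimb gastrocnemius (GAS) muscles of wildtype (WT) mice with those of Kvβ2 knockout (KO) mice, which lack the β subunit of voltage-gated potassium channels encoded by *Kcnab2*. Both genotypes came from crosses of Kvβ2+/- null mice, all were untreated males 20 weeks of age, and the deletion was present in every tissue and throughout life. RNA of the whole muscle was sequenced from 3 mice of each genotype, with 1 library per mouse and the replicate numbers 1, 7 and 8 in both. The question was which genes of muscle formation and repair differed between the genotypes in young muscle. In whole muscle, fewer cells of a type and less RNA per cell cannot be told apart.

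Adult muscle fibers cannot divide, and new nuclei come from satellite cells that lie between a fiber and its basement membrane. Resting satellite cells are marked by the transcription factor Pax7 and adhere to the fiber through M-cadherin, the product of *Cdh15*. When activated they express Myf5 and MyoD, divide as myoblasts, and then express myogenin as they leave the cell cycle and fuse. The myogenic regulatory factors bind DNA as dimers with E proteins at a short motif called the E-box. In mature muscle, *Myf6* (MRF4) and part of the *Myod1* and *Myog* RNA are made by the nuclei of the fibers themselves, and both latter genes are known to respond to denervation. Six4 is a homeodomain protein that binds the MEF3 motif of myogenic promoters, and Vgll2 is a partner of TEAD factors, which bind the MCAT motif.

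The table held FPKM, which scales the fragments of a gene to its transcript length in kilobases and to the fragments of its library. The steps of low values placed the depth at 20510000 to 21520000 fragments in the WT libraries and 14920000 to 19350000 in the KO libraries. The targeted gene *Kcnab2* ranged from 0.10 to 0.233 FPKM in WT muscle, and no KO library exceeded 0.0151 FPKM, so the labels held. Genes were tested with limma on log2(FPKM + 0.1), a scale that understates the change of low genes. Of the 12334 genes whose mean reached 0.5 FPKM, 31 were called higher and 9 lower in KO at an adjusted p under 0.05. The muscle fiber markers fitted the labelled tissue, with 41124 to 64575 FPKM summed over 7 of them.

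The stretches before the starts of 2 of the genes are shown with their matches to motifs named above. Promoters of 6 of the 8 genes were found in RefSeq (GRCm38.p6), in 7 entries that each reach from 250 bases before a start to 50 bases after it. *Myod1* and *Myf6* were not among them. *Myog* is shown for its match to MEF3 beside E-boxes. *Vgll2* is shown because it had the largest log2 fold change of the 6 of these 8 genes that were tested. Each sequence is the 250 bases before the RefSeq start, on the plus strand, with capitals marking matches to the E-box (CANNTG) and, in *Myog*, also to MEF3 (TCAGGTT). The windows are chr1:134289754-134290003 for *Myog* and chr10:52022252-52022501 for *Vgll2*. The entry of *Cdh15* lies inside the gene as GENCODE vM21 places it, where the gene begins further upstream than the RefSeq start, and is described without its sequence. The entry of *Pax7* lies inside its gene in that annotation as well. The *Myog* E-box nearest the start and the MEF3 match of *Six4* also lie inside their genes there.
Myog: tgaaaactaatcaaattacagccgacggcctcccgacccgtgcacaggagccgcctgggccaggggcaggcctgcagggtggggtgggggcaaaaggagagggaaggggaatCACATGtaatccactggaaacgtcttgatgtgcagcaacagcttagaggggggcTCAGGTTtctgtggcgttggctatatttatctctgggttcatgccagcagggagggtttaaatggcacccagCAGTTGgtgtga
Vgll2: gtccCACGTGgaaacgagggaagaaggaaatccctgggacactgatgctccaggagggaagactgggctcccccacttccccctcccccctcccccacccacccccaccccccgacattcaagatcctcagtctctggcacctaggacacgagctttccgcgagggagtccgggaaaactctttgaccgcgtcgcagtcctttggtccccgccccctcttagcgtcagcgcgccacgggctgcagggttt

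*Myog* held E-boxes at bases -138 to -133 and -12 to -7, counted from the start as base 1 with no base 0, and the MEF3 match at -84 to -78. *Cdh15* held E-boxes at -236, -135 and -32, and also CACTTG, from base -2 to base 4. The 1 E-box of *Vgll2*, at -246, and the match of *Cdh15* at -32 were of the form CACGTG, the form that clock factors are known to bind, and such matches count under both motifs. *Six4* held a MEF3 match on the other strand, AACCTGA, at -97 in 1 of its 2 entries. All motifs were searched on both strands. Of 32851 promoters of the same length, 72.3% held an E-box, 7.15% held CACGTG and 4.07% held MEF3, while 14.7% held the MCAT motif (CATTCC) and 3.19% a MEF2 motif. Neither of the last 2 motifs matched exactly in the entries of these genes, and no E-box matched in those of *Myf5*, *Pax7* and *Six4*. The MEF2 pattern searched was YTAWWWWTAR (Y for C or T, W for A or T, R for A or G). In *Myog*, ctatatttat differs from it only at the last letter, so the lack of an exact match does not show that a site is absent. The matches are letters in a window and were not measured as sites.

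The levels of the 8 genes in FPKM, which is per length, spanned a wide range. *Myf6* was highest, with a mean of 55.2 ± 6.78 FPKM (SD, n = 6), followed by *Vgll2* at 9.98 ± 5.58, *Myod1* at 7.53 ± 2.001, *Cdh15* at 3.39 ± 1.09, *Six4* at 2.97 ± 0.496 and *Myog* at 1.91 ± 0.704. *Pax7*, at 0.420 ± 0.0687 FPKM, and *Myf5*, at 0.409 ± 0.201 FPKM, were lowest. The ranges over all libraries were separate between *Myf6* and *Vgll2*, between *Myod1* and *Cdh15*, and between *Myog* and *Pax7*. The other neighbours in this order overlapped, so *Vgll2* and *Myod1*, *Cdh15*, *Six4* and *Myog*, and *Pax7* and *Myf5* were not set apart by their level. *Myf6*, the factor of mature fibers, was thus far above the genes of satellite cells and of their activation in every library.

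**Figure D1:**
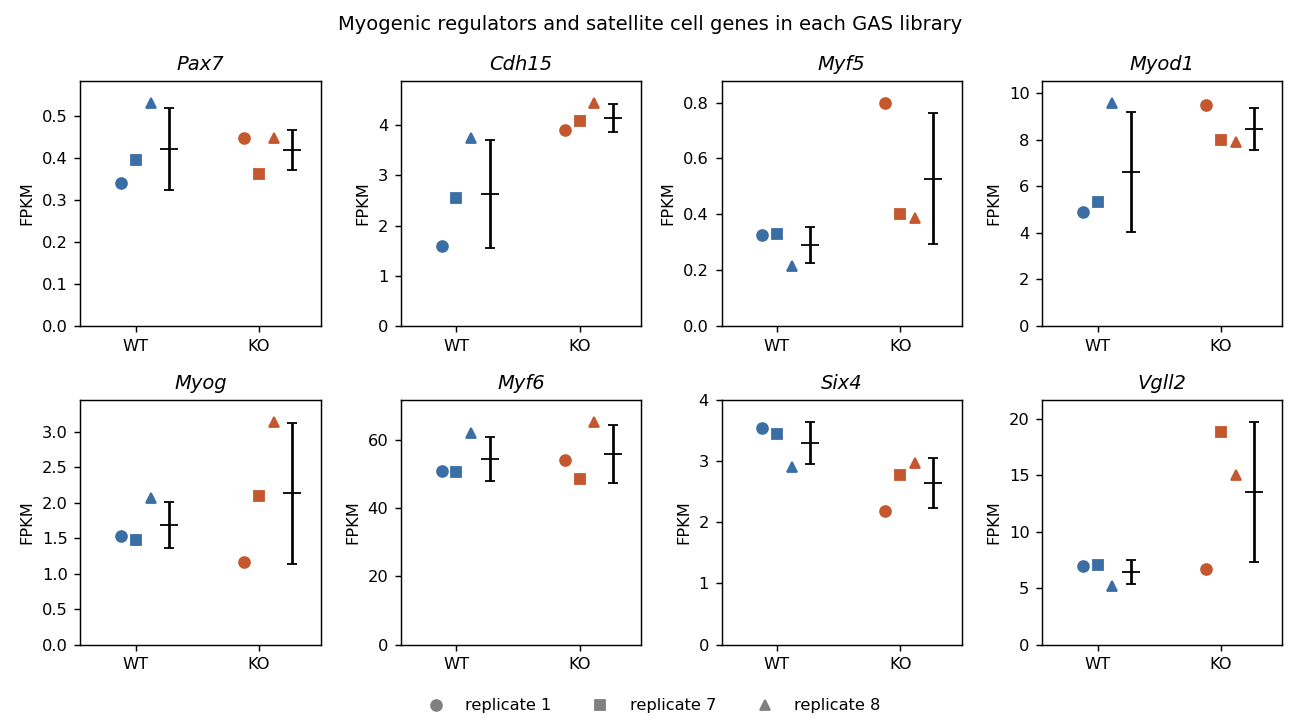
FPKM of each gene in each GAS library (y axes from 0, a scale per gene), with WT in blue, KO in orange, marker shape for the replicate number, and the mean with SD (n = 3) in black beside each group. KO points lie above all WT points for *Cdh15* and *Myf5*, and the groups overlap for the other 6 genes.

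Of the 8 genes, 6 passed the filter on low FPKM and 0 were called, against 0.324% of all genes tested (0.251% higher and 0.073% lower in KO). At an unadjusted p under 0.05 there were 2, *Cdh15* and *Vgll2*, against 26.2% of all genes tested (15.3% higher and 10.9% lower in KO). The 6 tested genes had a median log2 fold change of 0.32, against 0.010 over all genes tested, with 5 means higher and 1 lower in KO. The libraries of the genotypes did not overlap for 1 of the 6, *Cdh15*, against 34.5% of all genes tested, 18.3% with KO above WT and 16.2% with KO under WT. The 8 genes are too few for these shares to set them apart from the table.

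*Pax7*, the transcription factor that marks satellite cells, had 0.340, 0.396 and 0.529 FPKM in the WT libraries, in the order of replicates 1, 7 and 8, and 0.446, 0.362 and 0.446 FPKM in the KO libraries. The genotypes overlapped, and the WT libraries held both the lowest and the highest value. The mean difference was 0.0025 on the log2 scale (exact permutation test, two-sided, p = 1), and the gene was under the filter of the limma test. A comparison of 3 against 3 cannot give an exact permutation p under 0.1.

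*Cdh15*, which encodes M-cadherin, had 1.59, 2.55 and 3.74 FPKM in the WT libraries, in the order of replicates 1, 7 and 8, and 3.90, 4.10 and 4.44 FPKM in the KO libraries. Every KO library was above every WT library, but the gap between WT replicate 8 and KO replicate 1 was small. The KO libraries lay close together, with a coefficient of variation of 6.59%, while it was 40.8% in WT. The log2 fold change was 0.71 (SE 0.28, 95% confidence interval 0.065 to 1.36), which did not pass the test across genes (limma, unadjusted p = 0.035, adjusted p = 0.163). Without WT replicate 1 it was 0.41 (limma, adjusted p = 0.280). The gene lies on chromosome 8, 122847966 to 122867397 of GRCm38, and overlaps *Gm20388* on the same strand, which was at 7.83 to 13.3 FPKM. Fragments that both genes could hold may have been split between them in ways that FPKM do not show.

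The ratio of *Pax7* to *Cdh15* within a library, taken as FPKM + 0.1, was lower in each KO library than in each WT library. Its log2 value was -1.95, -2.42 and -2.61 in WT replicates 1, 7 and 8 and -2.87, -3.18 and -3.06 in KO replicates 1, 7 and 8. The mean difference was -0.71 (exact permutation test, two-sided, p = 0.1, adjusted p = 0.3 over 3 ratios), so it did not pass the test. The mean of *Pax7* was nearly equal in both genotypes, so the difference of the ratio was that of *Cdh15*.

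*Myf5*, which is made in satellite cells and activated myoblasts, had 0.325, 0.328 and 0.216 FPKM in the WT libraries, in the order of replicates 1, 7 and 8, and 0.797, 0.401 and 0.386 FPKM in the KO libraries. All KO libraries were above all WT libraries, and KO replicate 1 stood well above the other two. The mean log2 difference was 0.64 (p = 0.1 in the two-sided exact permutation test). The values rest on few fragments. By the steps of the low values they were 13, 13 and 9 fragments in WT and 23, 15 and 12 in KO, 35 against 50 in all. In exact Poisson intervals at 95% for single libraries, which cover counting error only, KO replicate 1 (0.505 to 1.196 FPKM) lay above WT replicate 8 (0.0989 to 0.410 FPKM), while every other pair of a KO and a WT library overlapped. Without KO replicate 1 the mean log2 difference was 0.35.

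*Myod1*, which encodes the determination factor MyoD, had 4.91, 5.32 and 9.56 FPKM in the WT libraries, in the order of replicates 1, 7 and 8, and 9.48, 7.999 and 7.89 FPKM in the KO libraries. The 3 KO libraries and WT replicate 8 lay together, and WT replicates 1 and 7 were lower. The log2 fold change was 0.41 (SE 0.25, limma, adjusted p = 0.322). Without WT replicate 8 the log2 fold change was 0.71 (limma, adjusted p = 0.079), and without WT replicate 1 it was 0.24 (limma, adjusted p = 0.609).

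*Myog*, which encodes myogenin and drives differentiation, had 1.53, 1.47 and 2.06 FPKM in the WT libraries, in the order of replicates 1, 7 and 8, and 1.16, 2.10 and 3.14 FPKM in the KO libraries. KO held both the lowest and the highest library, with a coefficient of variation of 46.5% against 19.4% in WT. The log2 fold change was 0.23 (SE 0.34, limma, adjusted p = 0.687). It was 0.59 without KO replicate 1 and turned to -0.09 without KO replicate 8. The log2 ratio of *Myog* to *Myod1* was lowest in KO replicate 1, at -2.93, and highest in KO replicate 8, at -1.30, with the WT libraries at -1.62, -1.79 and -2.16 between them. Its mean difference was -0.18 (exact permutation test, two-sided, p = 0.8, adjusted p = 0.8 over 3 ratios) and turned to 0.27 without KO replicate 1.

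*Myf6*, the factor of mature fibers, had 50.9, 50.5 and 61.8 FPKM in the WT libraries, in the order of replicates 1, 7 and 8, and 53.9, 48.6 and 65.2 FPKM in the KO libraries. The genotypes overlapped throughout, and replicate 8 was the highest library in both. The log2 fold change was 0.034 (SE 0.14, limma, adjusted p = 0.901), with a 95% confidence interval of -0.30 to 0.37. This interval was the narrowest of the 6 tested genes. *Myf5* and *Myf6* are neighbours on the minus strand of chromosome 10, with 6718 bases between them. The log2 ratio of *Myf6* to *Myod1* was 3.35, 3.22 and 2.68 in WT and 2.50, 2.59 and 3.03 in KO replicates 1, 7 and 8, so the groups overlapped (mean difference -0.38, exact permutation test, two-sided, p = 0.2, adjusted p = 0.3 over 3 ratios).

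*Six4*, a homeodomain factor upstream of the myogenic genes, had 3.55, 3.45 and 2.90 FPKM in the WT libraries, in the order of replicates 1, 7 and 8, and 2.18, 2.78 and 2.96 FPKM in the KO libraries. It was the 1 tested member with a lower mean in KO, and WT replicate 8 lay among the KO libraries. The log2 fold change was -0.32 (SE 0.16, limma, adjusted p = 0.259), and -0.19 without KO replicate 1.

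*Vgll2*, a TEAD cofactor of skeletal muscle, had 6.98, 7.07 and 5.18 FPKM in the WT libraries, in the order of replicates 1, 7 and 8, and 6.74, 18.9 and 15.1 FPKM in the KO libraries. KO replicates 7 and 8 were far above WT, while KO replicate 1 lay among the WT libraries. The log2 fold change was 0.96 (SE 0.36, 95% confidence interval 0.12 to 1.79), the largest of the 6 tested genes, and did not pass the test across genes (limma, unadjusted p = 0.030, adjusted p = 0.155). Without KO replicate 1 it was 1.39 (limma, adjusted p = 0.099).

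**Figure D2:**
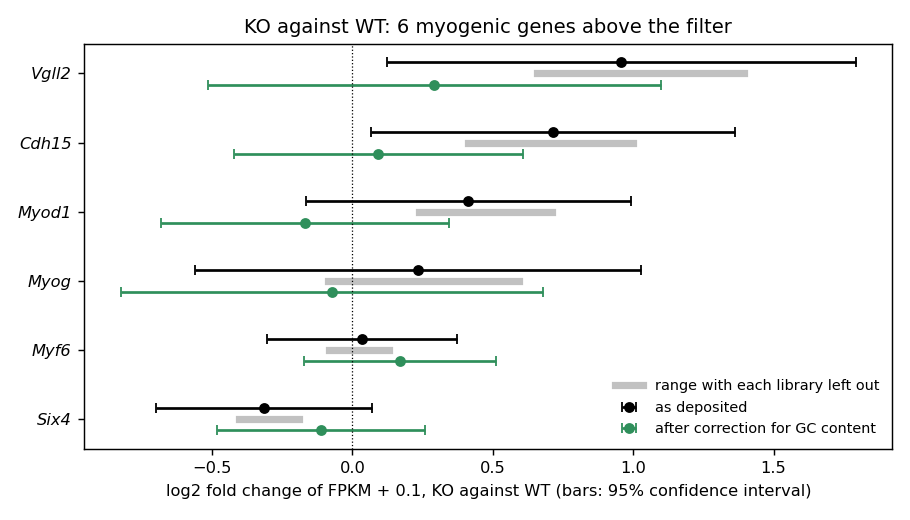
log2 fold change of FPKM + 0.1 in KO against WT (x axis) for the 6 genes that passed the filter (y axis), with 95% confidence intervals, as deposited in black and after correction for GC content in green. Grey bars span the values with each library left out in turn. *Vgll2*, at 0.96, and *Cdh15*, at 0.71, are farthest from 0 as deposited, and every interval crosses 0 after the correction.

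The differences of the myogenic genes went along with the GC content of their transcripts. Across the 11985 tested genes with a known GC content, log2 fold change and GC content had a Spearman rho of 0.70, a description across genes of the same 6 libraries. The GC content of *Vgll2*, at 63.0%, *Cdh15*, at 59.9%, *Myod1*, at 58.9%, *Pax7*, at 56.6%, and *Myog*, at 54.8%, was above the median of 50.1% over tested genes. *Myf6*, at 46.4%, *Six4*, at 45.4%, and *Myf5*, at 41.6%, were below it. The order of the log2 fold changes of the tested members was the same as that of their GC content, with *Vgll2* and *Cdh15* at one end and *Six4* at the other. The 2 genes under the filter did not share this order, since *Myf5* had a higher mean in KO at the lowest GC content and *Pax7* had a difference near 0 at a high one.

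The median change of genes in the same band of GC content had the direction of the tested member, except for *Myf6*. The median log2 fold change was 0.64 over the 98 genes in the band of *Vgll2* and 0.57 over the 656 in the band of *Cdh15* and *Myod1*. It was 0.30 in the band of *Myog*, -0.21 in that of *Six4* and -0.11 in that of *Myf6*. *Vgll2* was at percentile 82.7 and *Cdh15* at percentile 66.2 of their bands, and *Myod1* at percentile 33.1. *Myog* was at percentile 39.5, *Six4* at percentile 28.4 and *Myf6* at percentile 75.6 of theirs. After each library's trend with GC content was removed, the log2 fold change was 0.29 for *Vgll2* (SE 0.35, limma, adjusted p = 0.789) and 0.093 for *Cdh15* (SE 0.22, limma, adjusted p = 0.907). *Myod1* then had -0.17, *Myog* -0.07, *Six4* -0.11 and *Myf6* 0.17, so *Myod1* and *Myog* changed sign. Whether the trend comes from the libraries or from the muscles was not tested.

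**Figure D3:**
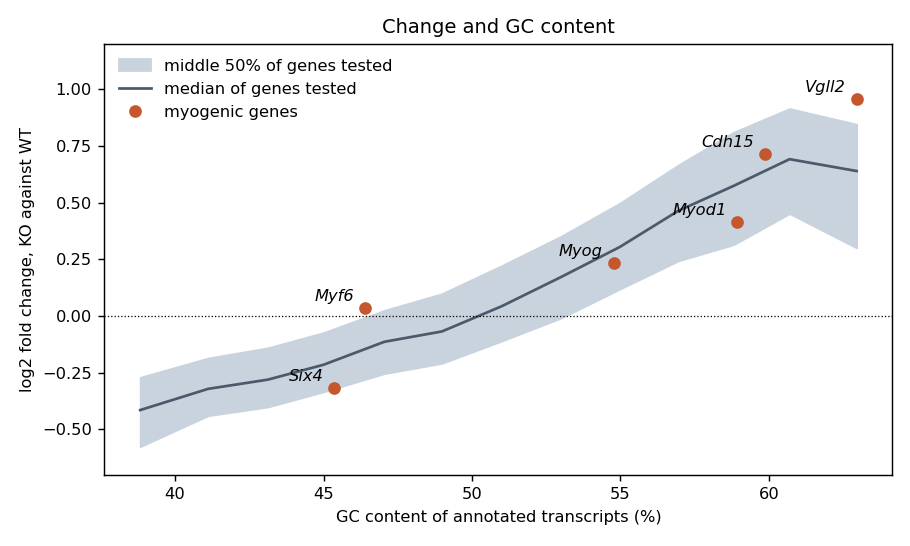
log2 fold change in KO against WT (y axis) against the GC content of annotated transcripts in % (x axis), with the median (line) and the middle 50% (band) of tested genes in bands of GC content, and the 6 tested myogenic genes as points. *Vgll2* (63.0% GC) has the highest and *Six4* (45.4% GC) the lowest GC content and log2 fold change of the 6 genes.

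The libraries also differed in slow fiber genes. The summed level of 10 listed slow fiber genes was 1116, 770.0 and 66.3 FPKM in WT replicates 1, 7 and 8 and 417, 1310.3 and 2167 FPKM in KO replicates 1, 7 and 8. *Myh2*, also on the list, encodes the fast type IIa myosin and was left out of this sum after its values were seen. *Myh7*, the slow myosin heavy chain, was at 24.3, 22.1 and 0.0513 FPKM in WT and 15.2, 50.5 and 77.4 FPKM in KO. In each genotype, the library with the least slow fiber RNA had the lowest *Vgll2* and the highest *Myod1*, and these were WT replicate 8 and KO replicate 1. The highest *Vgll2* was not in the library with the most slow fiber RNA in either genotype. *Vgll2* is known to act in slow fibers, and *Myod1* is known to be higher in fast fibers. All 10 genes were tested and 10 had higher means in KO, with a median log2 fold change of 1.51. Of these, 0 were called and 0 had an unadjusted p under 0.05 (limma), against 0.324% and 26.2% of all genes tested. *Myh2* had a log2 fold change of 0.75 (limma, adjusted p = 0.093). With *Myh2*, the list had 11 genes and a median of 1.39. The part of slow fiber content in the differences of *Vgll2* and *Myod1* was not tested.

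**Figure D4:**
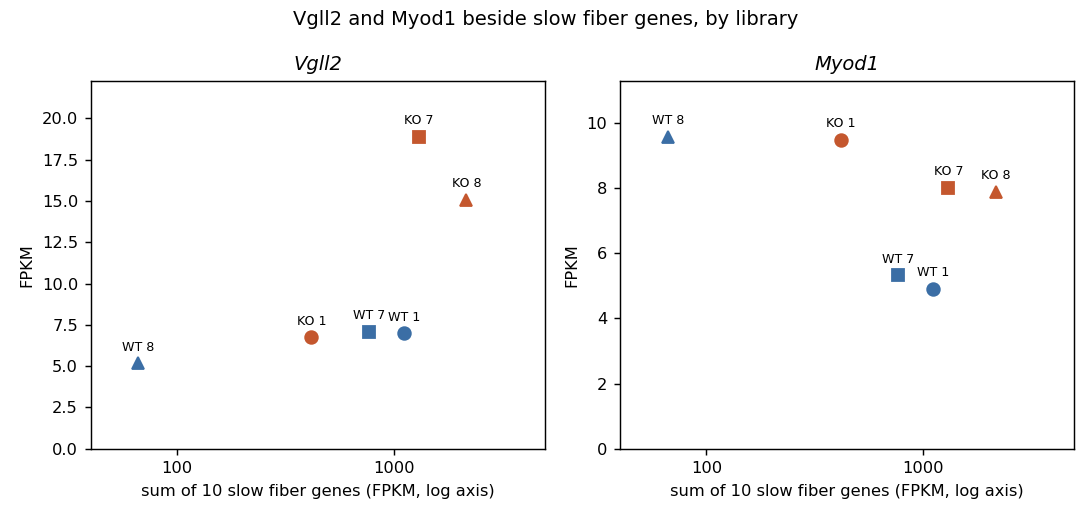
FPKM of *Vgll2* (left) and *Myod1* (right) on the y axes against the summed FPKM of 10 slow fiber genes on a log x axis, with 1 point per library, WT in blue and KO in orange. WT replicate 8, at 66.3 FPKM, and KO replicate 1, at 417 FPKM, have the least slow fiber RNA of their genotypes, the lowest *Vgll2* and the highest *Myod1*.

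Fast fiber genes did not separate the genotypes. Of the 12 listed, 9 were tested and 0 were called, 4 had higher and 5 lower means in KO, and the median log2 fold change was -0.05. *Myh1* was at 203 to 881 FPKM in WT and 483 to 918 FPKM in KO, and *Myh4* was listed at 0 in every library, as were *Tnnt3* and *Atp2a1*. Since all are muscle genes, a value of 0 in this table does not show absence.

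Some markers of other cells had no overlap between the genotypes. In each of these marker lists 0 genes were called (limma), against 0.324% of all genes tested. The summed level of 6 adipocyte markers was 7.76 to 35.1 FPKM in WT and 45.3 to 172 FPKM in KO, with KO replicate 7 highest, the library that was also highest in *Vgll2*, and no adipocyte marker was at 0. The sums for endothelial cells, macrophages and leukocytes, fibroblasts, Schwann cells, tendon cells, and pericytes and smooth muscle overlapped between the genotypes. By single markers, all KO libraries were above all WT libraries for 4 of 6 adipocyte markers and 1 of 7 endothelial markers (*Vwf*). The same held for 4 of 6 pericyte and smooth muscle markers (*Cspg4*, *Pdgfrb*, *Acta2* and *Myh11*), while 1, *Rgs5*, had all KO libraries under all WT libraries. Of all genes tested, 18.3% had KO above WT and 16.2% had KO under WT in this way. The 5 tested macrophage and leukocyte markers and the 5 tendon markers had higher means in KO. The part of these cells in the values of the myogenic genes was not tested. The sum of 5 satellite cell markers was 5.85 to 7.23 FPKM in WT and 8.27 to 8.69 FPKM in KO. *Cdh15* is 1 of the 5 and *Pax7*, nearly equal in both genotypes, another, so this sum is no separate measurement. The others had means in WT and KO of 3.01 and 3.71 FPKM (*Chodl*), 0.121 and 0.127 FPKM (*Megf10*) and 0.192 and 0.0955 FPKM (*Calcr*), each with overlap.

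Other genes of satellite cells and their quiescence held the 1 called gene among the lists related to the myogenic regulators. *Ncam1*, a cell adhesion molecule of satellite cells, nerve and denervated fibers, was at 1.12, 1.31 and 1.19 FPKM in WT and 2.90, 3.46 and 3.84 FPKM in KO replicates 1, 7 and 8. It rose in KO with no overlap (log2 fold change 1.41, SE 0.17, limma, adjusted p = 0.030), and its value was 1.41 after the GC correction too. Over 19 alternatives the log2 fold change ranged from 0.99 to 1.52, and the call was lost in 11, among them each of the 6 that left out a library, with adjusted p from limma between 0.0036 and 0.235. Of the 25 genes of this list, 20 were tested, 1 was called higher and 0 lower, 15 had higher and 5 lower means in KO, and the median log2 fold change was 0.21, or 0.008 after the GC correction. At an unadjusted p under 0.05 there were 5 of the 20, all higher in KO, against 26.2% of all genes tested in either direction and 15.3% higher. Of all genes tested, 0.324% were called, the share beside which the counts called in the other lists stand too.

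*Sdc3*, a syndecan of satellite cells, had a log2 fold change of 0.60 (limma, adjusted p = 0.106), and *Fgfr1*, a receptor for fibroblast growth factors, had 0.43 (limma, adjusted p = 0.108). The other two of the 5, named after their values were seen, were *Itga7*, the laminin receptor α7 integrin, at 0.61, and the Notch receptor *Notch3*, at 0.71. After the GC correction these 4 genes had log2 fold changes of 0.00078, 0.12, 0.35 and 0.091. *Pax3*, the relative of *Pax7*, was listed at 0 in every library. *Calcr*, a receptor of quiescent satellite cells, had means of 0.192 FPKM in WT and 0.0955 FPKM in KO, under the filter.

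Dimer partners and inhibitors of the myogenic factors were split in direction. Of 20 listed, 13 were tested and 0 called, with 5 means higher and 8 lower in KO and a median log2 fold change of -0.12. *Tcf3*, which encodes the E proteins that pair with MyoD, had 0.70 (limma, adjusted p = 0.108) and *Tcf4*, another E protein gene, 0.03. *Id3*, an inhibitor that binds E proteins, had 0.73 (limma, adjusted p = 0.089), and *Zeb1*, a repressor of E-box genes, had -0.32 (limma, adjusted p = 0.189). After the GC correction these were 0.041 for *Tcf3*, 0.34 for *Id3* and -0.17 for *Zeb1*.

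The family of *Six4* had 8 of 9 genes tested and 0 called, with 3 means higher and 5 lower in KO. *Six2*, another homeodomain gene of this family, had a log2 fold change of -0.48 (limma, adjusted p = 0.439). *Eya2*, a coactivator of these homeodomain proteins, was at 0.442 to 0.628 FPKM in WT and 0.991 to 1.53 FPKM in KO with no overlap (log2 fold change 1.06, limma, adjusted p = 0.091). *Eya4*, of the same family and named after its values were seen, had -0.68 (limma, adjusted p = 0.183). After the GC correction, *Six2* had -1.14, *Eya2* 0.67 and *Eya4* -0.39. The family thus held both directions, as *Six4* and the other members did.

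The partners of *Vgll2* were split as well. Of 10 TEAD, VGLL, YAP and TAZ genes, *Vgll2* included, 9 were tested and 0 called, with 4 means higher and 5 lower in KO and a median log2 fold change of -0.09. *Tead1*, the most abundant TEAD gene, had -0.36 and *Tead2* had 0.18. *Tead3* had 0.60 (limma, adjusted p = 0.077), *Vgll4*, which competes for TEAD factors, 0.61 (limma, adjusted p = 0.180), and *Wwtr1*, which encodes the coactivator TAZ, -0.36 (limma, adjusted p = 0.190). After the GC correction these 3 had 0.0046, 0.22 and -0.093.

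The MEF2 family, partners of the myogenic factors in activating muscle genes, had 3 of 4 genes tested and 0 called. *Mef2d* had a log2 fold change of 0.54 (limma, adjusted p = 0.110) and *Mef2a* of -0.29 (limma, adjusted p = 0.187), and *Mef2b* was under the filter. Both values were near 0 after the GC correction, at 0.077 and 0.0024.

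Genes of myoblast fusion and differentiation, which lie downstream of MyoD and myogenin, had 12 of 19 tested and 0 called, with 8 means higher and 4 lower in KO and a median log2 fold change of 0.24. *Tmem8c* (myomaker) was at 0.0487 FPKM or less in each library, and *Gm7325* (myomixer) was listed at 0 in every library. Of the 12, 5 had an unadjusted p under 0.05, all higher in KO, against 15.3% of all genes tested. The intermediate filament gene *Des* had 0.71 (limma, adjusted p = 0.075), the myosin binding protein gene *Mybph* 1.15 (limma, adjusted p = 0.093) and the embryonic and atrial light chain gene *Myl4* 0.95 (limma, adjusted p = 0.094). The other two, named after their values were seen, were the neonatal myosin *Myh8*, at 1.15, and the creatine kinase gene *Ckm*, at 0.81. After the GC correction these 5 had 0.39, 0.70, 0.71, 1.22 and 0.40.

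Genes known to respond to denervation, among which *Myod1* and *Myog* would also count, had 8 of 13 tested. The 1 called was *Ncam1*, the gene already counted in the satellite cell list, against 0.324% of all genes tested. There were 4 means higher and 4 lower in KO, with a median log2 fold change of -0.003. *Chrng*, the fetal acetylcholine receptor subunit, was at 0.220 FPKM or less in each library, and *Chrna1* had -0.35 (limma, adjusted p = 0.444). *Ankrd1*, a stretch and denervation gene, was at 1.02 to 1.48 FPKM in WT and 2.12 to 3.43 FPKM in KO (log2 fold change 1.16, limma, adjusted p = 0.071). *Gadd45a* had -0.36 (limma, adjusted p = 0.104), with no overlap between the genotypes. After the GC correction, *Ankrd1* had 1.25, *Gadd45a* -0.85 and *Chrna1* -0.21.

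Of 12 genes of cell proliferation, 5 were tested and 0 called, and their median log2 fold change was 0.014. *Mki67* was at 0.0375 FPKM or less and *Top2a* at 0.211 FPKM or less in each library, near the limit of what these depths can show. Clock genes, some of whose factors bind the CACGTG form of the E-box, had 12 of 14 tested and 0 called, with 8 means higher and 4 lower in KO. *Per1* was at 2.81 to 6.07 FPKM in WT and 14.3 to 22.6 FPKM in KO (log2 fold change 1.91, limma, adjusted p = 0.067). *Cry1* had -0.65 (limma, adjusted p = 0.075) and *Clock* -0.76 (limma, adjusted p = 0.078), both with no overlap. *Arntl* had -0.80 (limma, adjusted p = 0.448) and overlapped through WT replicate 1. It was at 1.84, 11.7 and 10.5 FPKM in WT and 2.62, 4.18 and 3.80 FPKM in KO replicates 1, 7 and 8. After the GC correction, *Per1* had 1.33, *Cry1* -0.65, *Clock* -0.44 and *Arntl* -0.73. The time of day of tissue collection is not given in the sources used here.

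**Figure D5:**
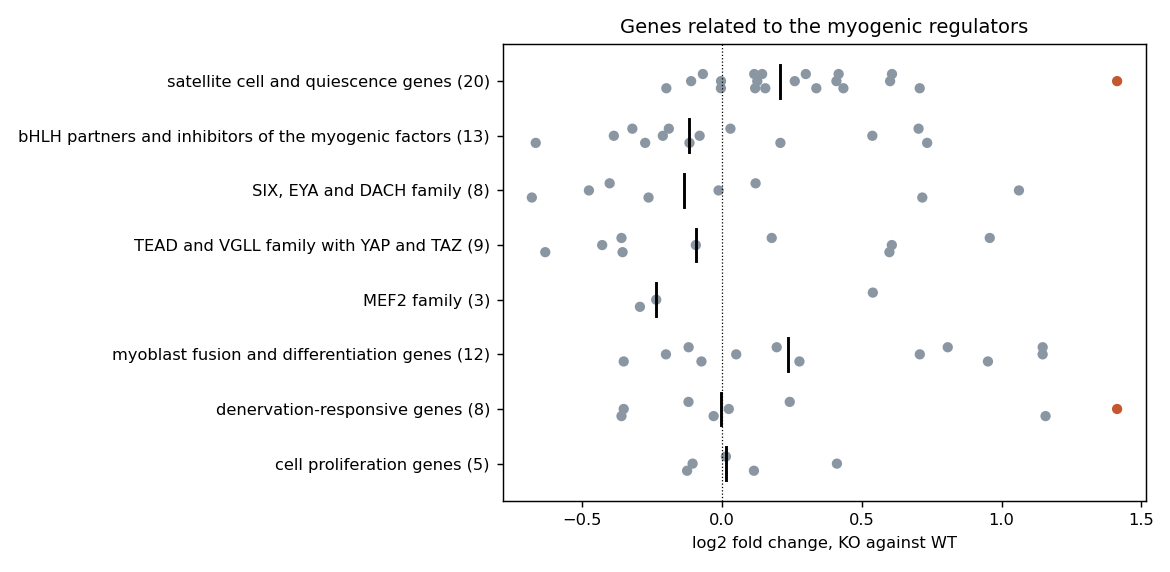
log2 fold change in KO against WT (x axis) of the tested genes of 8 related lists (y axis, number of genes in brackets), with the median of each list as a black bar and called genes in orange. *Ncam1*, at 1.41, is the 1 called gene and stands in both the satellite cell and the denervation list.

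The genes whose pattern over the 6 libraries was most like that of each member differed from member to member. Likeness was Pearson's r of log2(FPKM + 0.1) over the 6 libraries, computed against the 10677 or 10678 other genes that averaged 1 FPKM or more, and is given as a description. For *Vgll2* these were *Lmcd1* (r = 0.997), *Cap1* (r = 0.997) and *Adck3* (r = 0.995). *Lmcd1*, a LIM domain gene of muscle, ranged from 12.5 to 78.1 FPKM. For *Cdh15* they were *Rfng*, *E2f4* and *Hsf1* (r = 0.999, 0.997 and 0.997), and 826 genes had r above 0.9, with a median GC content of 56.1%. For *Six4*, 99 genes had r above 0.9, with a median GC content of 45.6%, led by *Pla1a* (r = 0.988), *Cpsf6* and *Ank2*.

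For *Myod1* the most like genes were *Pcca* (r = 0.995), *Ppp4r1* and *Mad2l1bp*, and for *Myog* they were *Ccdc101* (r = 0.981), *Ilkap* and *Ttc13*. For *Pax7* they were *Clcn4-2* (r = 0.992), *Wdsub1* and *Rps16*. The lowest best matches were those of *Myf5*, *Shkbp1* (r = 0.964), and of *Myf6*, *Tk1* (r = 0.961). The next for *Myf5* were *Atrnl1* and *Col11a2*, and for *Myf6* they were *Gm7027* and *Scp2-ps2*. With 6 libraries, values of this size arise among many genes, and the points share depth and GC trend.

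Among the members themselves, *Myod1* and *Cdh15* had the highest r, at 0.87, followed by *Myf6* and *Pax7* at 0.78 and *Myod1* and *Pax7* at 0.74. *Six4* ran opposite to *Myod1* (r = -0.84), *Myf5* (r = -0.74) and *Cdh15* (r = -0.70). *Vgll2* was closest to *Myog* (r = 0.61) and had 0.08 with *Myod1*.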

How the data were processed

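GAS RNA of 3 WT and 3 KO male mice was sequenced. The authors mapped reads of a stranded mRNA kit to GRCm38 with TopHat and deposited FPKM from Cufflinks. Versions, annotation release and strand setting are not given in the sources used here.

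The 8 genes and the related lists were chosen with earlier results of these data known. Genes named from the lists are the first 2 of each list, any called gene and up to 3 genes of lowest unadjusted p under 0.05 with no overlap between genotypes. The values of 1 gene that this rule names are not reported here. Where a listed symbol had several entries (4 symbols), the entry of highest mean was used. Genes whose mean reached 0.5 FPKM were tested with limma 3.58.1 (R 4.3.3, variance trend) on log2(FPKM + 0.1), with Benjamini-Hochberg adjustment. Single values were tested with exact permutation tests in Python 3.11.15 (scipy 1.17.1), and figures were drawn with matplotlib 3.10.9. Fragments per library were estimated from genes with 1 annotated transcript, and 90.0% to 95.0% of low values were whole within 0.15 of a fragment. GC content and coordinates came from GENCODE vM21, in which 32916 gene identifiers were found. The GC correction subtracted from each library's deviation from the mean a loess curve of span 0.3. On simulated data of 12092 genes, limma recovered 61% of 100 genes changed by 1 and 94% of 100 changed by 2 on the log2 scale, with 11 false calls. The simulated noise was independent for each gene and library and held no GC trend, so these shares may not hold for the real libraries. No pair of libraries shared more than 1 of 14983 values above 0. Alternatives covered pseudocount, filter, scaling, variance model, array weights, replicate block, GC content, length, genes listed at 0 and each library left out.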

Additional observations from a re-analysis of the deposited data

How the results depend on the processing

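Of 114 values of the 6 tested genes under alternatives, 2 passed the threshold and 9 had the opposite sign. With array weights, *Cdh15* had 0.70 (limma, adjusted p = 0.027) and *Vgll2* 0.93 (limma, adjusted p = 0.034), where 1863 genes were called higher and 1284 lower. The GC correction turned *Myod1* to -0.17 and *Myog* to -0.072, with or without the replicate block, and the length correction turned *Myf6* to -0.14. A pseudocount of 1 turned *Pax7* to -0.0018.

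With each library left out, log2 fold changes ranged from 0.24 to 0.71 for *Myod1*, -0.086 to 0.59 for *Myog*, -0.082 to 0.13 for *Myf6*, 0.41 to 1.00 for *Cdh15*, -0.40 to -0.19 for *Six4* and 0.66 to 1.39 for *Vgll2*. The mean differences ranged from 0.35 to 0.80 for *Myf5* and -0.11 to 0.15 for *Pax7*. The log2 ratios ranged from -0.58 to -0.25 (*Myf6* to *Myod1*), -0.55 to 0.27 (*Myog* to *Myod1*) and -0.85 to -0.52 (*Pax7* to *Cdh15*).

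Over all genes, 31 were called higher and 9 lower. Calls higher were 7 with a pseudocount of 1, 9 with no filter, 11 with quantile normalization, 12 with no variance trend, 6 with the GC correction, 9 with the length correction, 1 without genes listed at 0 and 6 to 19 with a library left out. Calls lower were 4 with a pseudocount of 1, 0 without genes listed at 0 and 5 to 19 with a library left out. With the replicate block, 6 genes were called higher and 7 lower, and 5 were called higher with the block and the GC correction. After the genotype's mean of each tested gene was subtracted from the log2 values, libraries that share a number had correlations of -0.025, -0.080 and 0.034. In these deviations not every library correlated best with its own number, so the numbers were not taken as pairs.

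With 3 libraries per genotype, the confidence intervals of *Cdh15* and *Vgll2* reach from near 0 to well above 1. *Pax7* and *Myf5* were outside the filter, so the scaling, weight, block, GC and length alternatives gave no value for them. Values of *Myf5* rest on 9 to 23 fragments.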
